A study of Mus musculus with 5 samples.

Results

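The genes here encode mitochondrial enzymes of early tricarboxylic acid (TCA) cycle reactions, citrate synthesis to isocitrate oxidation, or enzymes of like reactions outside mitochondria. They are citrate synthase (Cs), the cytosolic aconitase Aco1, the NADP-dependent isocitrate dehydrogenases Idh1 and Idh2, and Idh3a, Idh3b and Idh3g, which encode the subunits of the NAD-dependent enzyme. They were taken by gene name, and all 7 were found among the 17015 gene rows of the table. All 7 also passed the minimum of a mean of 0.5 FPKM (fragments normalized to transcript length and library size), which left 12148 genes for testing. Expression was measured by RNA-seq in tibialis anterior (TA), a fast-twitch muscle of the lower hindlimb, from sedentary male mice aged 8 weeks. There were 3 libraries of WT control muscle and 2 libraries labelled skmNrip1-/-, a skeletal muscle-specific deletion of Nrip1, the gene for the nuclear receptor coregulator RIP140. The mice came from a cross of floxed Nrip1 fl/fl mice (C57BL/6J) with C57BL/6JN mice in which the myogenin promoter drives Cre recombinase, and the WT control mice were Cre-negative littermates. That promoter is active in differentiating muscle cells, so other cell types of the muscle keep the gene. The comparison asks how the deletion of the coregulator changes expression of these enzymes in sedentary fast muscle.

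Citrate synthase joins acetyl-CoA to oxaloacetate to make citrate, and aconitase turns citrate into isocitrate. Isocitrate is then oxidized to 2-oxoglutarate, in the mitochondrial matrix by the NAD-dependent IDH3, which feeds NADH to the respiratory chain, or by the NADP-dependent IDH2, which makes mitochondrial NADPH. IDH1 runs the same NADP-dependent reaction in the cytosol and peroxisomes, and ACO1 is also known as iron regulatory protein 1, which binds mRNA when its iron-sulfur cluster is lost.

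Nrip1, the deleted gene, was higher and not lower in the libraries labelled as its deletion. Its FPKM were 4.64, 7.69 and 6.55 in the WT control libraries and 25.3 and 22.5 in the libraries labelled skmNrip1-/-, a log2 fold change of 1.94 (SE 0.21, limma adjusted p = 0.0261). In the floxed gene the loxP sites flank the last exon, which holds both the start and the stop codon. A gene-level FPKM does not show which exons gave the reads, and the cause of the higher Nrip1 FPKM was not tested. Directions below therefore refer to the libraries as labelled. The FPKM sums ranged from 969144 to 1288038 per library, and the table gives no fragment number, so the depth of each library is unknown and intervals for counting error could not be computed. The 13 genes encoded by mitochondrial DNA took 45.4% to 50.7% of the summed FPKM in WT control and 58.6% and 60.9% in the libraries labelled skmNrip1-/-. In a bulk sample, a change in the mix of cells and a change of RNA per cell cannot be told apart. The p-values measure only the spread between these libraries, where limma draws the spread of each gene toward that of other genes of similar level.

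Promoter sequence just upstream of the first exon is shown for 4 of the genes, chosen because the comparison turns on them: Idh2 as the NADP form that was called higher, Idh1 as the NADP form that was not, Idh3g as a subunit of the NAD-dependent enzyme, and Cs as the entry step. The sequences are from RefSeq (GRCm38.p6), written 5' to 3' on the strand of the gene. They cover chr7:80115393-80115600 (minus strand) for Idh2, chr1:65186501-65186729 (minus strand) for Idh1, chrX:73786898-73787147 (minus strand) for Idh3g and chr10:128337477-128337726 (plus strand) for Cs. Capitals mark matches to the searched motifs on either strand.
Idh2: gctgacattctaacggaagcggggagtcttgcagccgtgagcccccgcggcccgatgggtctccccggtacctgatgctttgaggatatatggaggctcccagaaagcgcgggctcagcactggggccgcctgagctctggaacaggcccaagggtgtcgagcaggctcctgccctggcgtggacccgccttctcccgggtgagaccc
Idh1: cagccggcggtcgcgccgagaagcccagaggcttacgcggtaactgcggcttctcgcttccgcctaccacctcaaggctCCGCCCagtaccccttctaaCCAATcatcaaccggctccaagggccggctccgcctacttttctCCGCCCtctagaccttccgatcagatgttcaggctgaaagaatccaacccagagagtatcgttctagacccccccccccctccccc
Idh3g: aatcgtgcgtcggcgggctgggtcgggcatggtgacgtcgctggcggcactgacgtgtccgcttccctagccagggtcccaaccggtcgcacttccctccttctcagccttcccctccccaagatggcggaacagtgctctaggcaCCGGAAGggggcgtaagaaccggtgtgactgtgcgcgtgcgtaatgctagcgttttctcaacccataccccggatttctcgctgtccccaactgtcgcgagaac
Cs: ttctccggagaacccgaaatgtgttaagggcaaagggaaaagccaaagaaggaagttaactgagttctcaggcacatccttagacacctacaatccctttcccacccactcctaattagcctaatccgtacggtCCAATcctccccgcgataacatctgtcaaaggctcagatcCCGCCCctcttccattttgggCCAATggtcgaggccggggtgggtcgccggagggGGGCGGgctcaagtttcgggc
The motifs were searched on both strands in the 250 bases before each RefSeq start, for the 6 of 7 genes with an entry. Idh1 had 2 such starts, both searched, and only the window of the first is printed. Its matches therefore come from more bases than those of the other genes. A window held the letters AGGTCA, a core element of many nuclear receptors, in 14.0% of all 32851 promoters and AAGGTCA, the core element of the estrogen-related receptors, which contains the former, in 4.08%. Neither was present in a window of the 6 genes, which says only that these letters are not in these bases. The GC box (GGGCGG), in 32.7% of all windows, was present for 4 of the 6 genes, Cs, Aco1, Idh1 and Idh2. CCAAT, in 33.8% of all windows, was also present for 4, Cs, Idh1, Idh2 and Idh3b. The matches of Idh2 lay 44 (CCAAT), 38 and 18 bases (GC boxes) before the RefSeq start. The GC boxes fall in annotated exon sequence that is not printed, and the CCAAT match runs across the exon's edge, so that only its first bases are printed, in lower case. Idh3g alone of the 6 held the ETS site CCGGAAG, 104 bases before its start, as did 6.91% of all windows. A match is a description of letters, not of binding.

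Of the 7 genes, Idh2 rose, and the other 6 were not called. Called here means a limma adjusted p at or under 0.05 together with a fold change at or over 1.2. By this rule 1 of 7 was called higher, against 0.37% of the genes tested, and 0 of 7 lower, against 0.0823%. At an unadjusted limma p of 0.05 or less, Cs, Idh2, Idh3a, Idh3b and Idh3g made 5 of 7 higher, against 6.57% of all genes, and 0 were lower, against 5.33%. Both libraries labelled skmNrip1-/- lay above every WT control library for 6 of the 7 genes, against 15.8% of all genes, and below for 0, against 14.4%, with Aco1 the gene whose groups overlapped. Overlap of single genes was judged, here and below, on the deposited FPKM. Their sums were larger in the labelled libraries (1288038 and 1286254) than in WT control (1144714, 1031290 and 969144). Scaling to equal totals can therefore bring groups to overlap. All 7 log2 fold changes were above 0, as were 49.9% of those tested, although with each library scaled to the same total, as in TPM, Cs, Aco1 and Idh1 fell just below 0 (-0.02, -0.13 and -0.04). That scaling moved the median of all genes from 0.00 to -0.29, and all 7 genes were above it. The median of the 7 log2 fold changes was 0.34, against 0.00 for all genes tested.

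**Figure D1:**
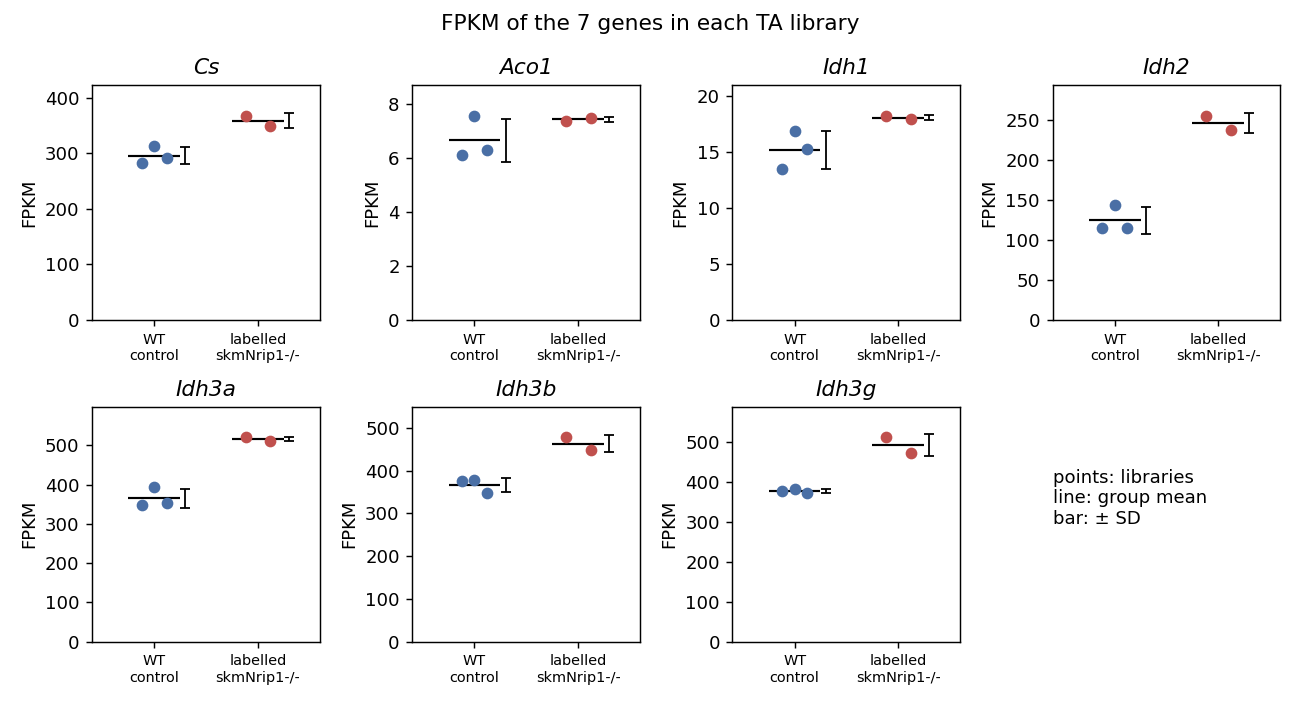
FPKM of the 7 genes in each library (vertical axis, FPKM, 1 panel per gene), with points for the 3 WT control libraries and the 2 libraries labelled skmNrip1-/-, lines for the group means and bars of ± SD. Idh2 ran from 114 to 144 FPKM in WT control and was 255 and 237 in the other group, whereas the values of Aco1 overlapped.

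Idh2, the mitochondrial NADP-dependent enzyme, had FPKM of 115, 144 and 114 in the WT control libraries and 255 and 237 in the libraries labelled skmNrip1-/-. The groups did not overlap, and the lowest labelled library was well above the highest control. The mean went from 124 ± 16.8 (SD, n = 3) to 246 ± 12.6 (SD, n = 2), a 1.98-fold rise. On the log2(FPKM + 0.1) scale the fold change was 0.99 (SE 0.14, 95% confidence interval 0.67 to 1.32, limma adjusted p = 0.0485), and 1.12% of the genes tested had a larger one. The call was close to the threshold: the fold change was 0.93 to 1.1 when any 1 library was left out, but the adjusted p was 0.102 without WT control replicate 1, 0.211 without WT control replicate 3, and 0.348 and 0.324 without replicate 1 or 2 of the labelled group, and 0.0324 without WT control replicate 2. Idh2 (ENSMUSG00000030541) lies at chr7:80094846-80115392 on the minus strand of GRCm38, and its longest protein-coding transcript has 11 exons and codes for 452 amino acids.

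Idh1, the cytosolic and peroxisomal NADP-dependent enzyme, was expressed far below Idh2. Its FPKM were 13.5, 16.9 and 15.3 in WT control and 18.3 and 17.9 in the labelled group. The groups did not overlap, but the gap between them was narrow beside the spread of the controls. The log2 fold change was 0.25 (SE 0.13, 95% confidence interval -0.05 to 0.55, limma adjusted p = 0.495), so Idh1 was not called, and under TPM scaling the difference turned to -0.04. Idh1 (ENSMUSG00000025950) is at chr1:65158616-65186500 on the minus strand, with 9 exons and 414 amino acids.

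Within each library, Idh2 held most of the summed FPKM of the NADP-dependent genes, and its part was larger in the labelled group. Idh2 made up 89.5%, 89.5% and 88.2% of the sum of Idh1 and Idh2 in WT control and 93.3% and 93.0% in the labelled libraries. The ratio of Idh2 to Idh1 FPKM was 8.54, 8.51 and 7.46 against 13.9 and 13.2. The groups did not overlap in either measure, and no test was made of them.

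In the deposited FPKM, the 3 subunit genes of the NAD-dependent enzyme were higher in the labelled libraries without overlap, and none was called. Idh3a encodes the catalytic alpha subunit, and its FPKM were 349, 393 and 354 in WT control and 519.9 and 511 in the labelled group. Its mean was 1.41-fold that of WT control, with a log2 fold change of 0.50 (SE 0.11, 95% confidence interval 0.23 to 0.77, limma adjusted p = 0.173). Among all genes tested, 4.91% had a larger log2 fold change.

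Idh3b and Idh3g encode the beta and gamma subunits, which join the alpha subunit in the enzyme and regulate it. Idh3b had 376, 377 and 348 FPKM in WT control and 478 and 448 in the labelled group, a log2 fold change of 0.34 (SE 0.11, 95% confidence interval 0.08 to 0.59, limma adjusted p = 0.302). Idh3g had 378, 382 and 371 FPKM against 511 and 472, a log2 fold change of 0.38 (SE 0.11, 95% confidence interval 0.13 to 0.63, limma adjusted p = 0.249). In both, the labelled group's replicate 1 was the higher of its libraries, and each value was above all WT control values. The 3 subunit genes kept a log2 fold change above 0 in all 15 alternatives, down to 0.04 for Idh3b under TPM scaling.

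The 3 subunits were expressed at nearly equal levels per length. In WT control their means were 377 (Idh3g), 367 (Idh3b) and 365 FPKM (Idh3a), and the ranges of these neighbours overlapped. In the labelled group Idh3a was first, at 516 FPKM, ahead of Idh3g at 491 and Idh3b at 463, and the ranges of Idh3g and Idh3b overlapped. The ratio of Idh3a to Idh3b was 0.929, 1.04 and 1.02 in WT control and 1.09 and 1.14 in the labelled libraries. Idh3a (ENSMUSG00000032279) is at chr9:54586334-54604661 on the plus strand, Idh3b (ENSMUSG00000027406) at chr2:130279309-130284547 and Idh3g (ENSMUSG00000002010) at chrX:73778963-73786897, both on the minus strand. Idh3b shares 5 exon bases with Nop56 on the opposite strand, a gene at 16.2 to 21.6 FPKM, and the sources used here do not state whether reads were assigned by strand.

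To set the NADP forms against the NAD forms, each was compared within the same library, where scaling between libraries has almost no effect. The ratio of Idh2 to Idh3a was 0.330, 0.366 and 0.322 in WT control and 0.490 and 0.464 in the labelled libraries. The ratio of Idh2 to Idh3b went from 0.306, 0.381 and 0.328 to 0.534 and 0.529, and that of Idh2 to Idh3g from 0.305, 0.377 and 0.308 to 0.499 and 0.502. All 3 ratios were higher in the labelled libraries, with no overlap. Their log2 differences were 0.49, 0.66 and 0.61, with pooled SDs of 0.085, 0.13 and 0.14. Each had an exact permutation p of 0.2 (two-sided, adjusted p = 0.3 over the 6 ratios compared). The two-sided p is the smaller one-sided p doubled. With the 10 splits of these libraries, the smallest exact permutation p is 0.1 one-sided and 0.2 in this two-sided form. The design therefore cannot reach 0.05.

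For Idh1 the ratio in the labelled libraries lay below WT control for Idh3a and within the range of WT control for Idh3b and Idh3g. The ratio of Idh1 to Idh3a was 0.0387, 0.0430 and 0.0432 in WT control and 0.0352 and 0.0351 in the labelled libraries, a log2 difference of -0.25 (pooled SD 0.073, exact permutation p = 0.2, adjusted p = 0.3, two-sided). Here the labelled libraries lay below the controls. The ratios of Idh1 to Idh3b and to Idh3g overlapped between the groups, with log2 differences of -0.08 and -0.13 (exact permutation p = 0.6 for each, adjusted p = 0.6, two-sided). The mean log2 level of the NADP forms minus that of the NAD forms was -3.21, -2.96 and -3.09 in WT control and -2.88 and -2.87 in the labelled group, a difference of 0.22 with a pooled SD of 0.10. This mean joins Idh2, whose ratios to the subunits were higher, with Idh1, whose ratios were not.

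**Figure D2:**
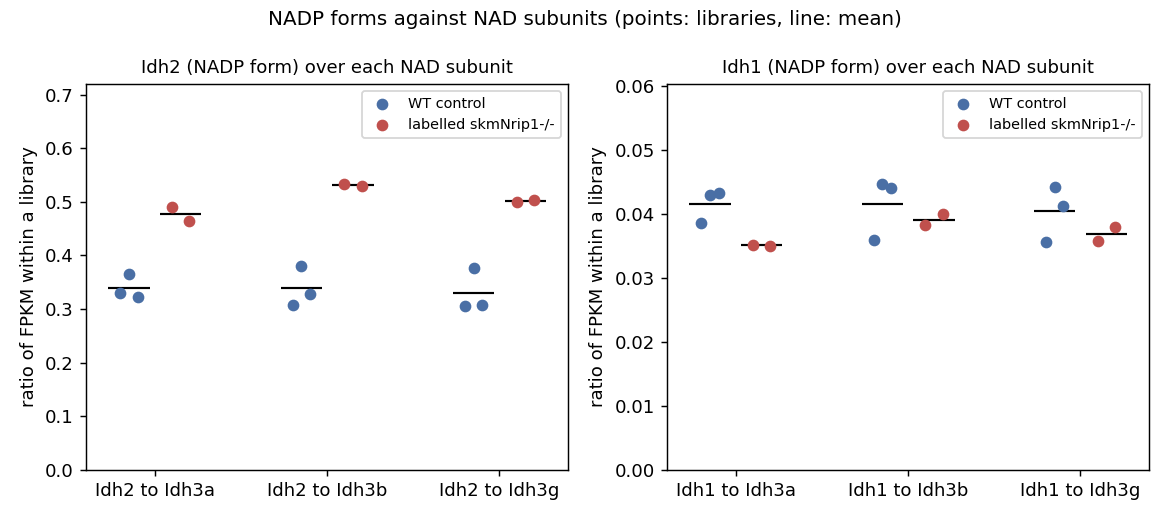
Ratios of FPKM within each library of Idh2 and of Idh1 to the subunit genes Idh3a, Idh3b and Idh3g, with 1 point per library and the groups side by side. The Idh2 ratios were 0.305 to 0.381 in WT control and 0.464 to 0.534 in the labelled libraries, whereas the Idh1 ratios to Idh3b and Idh3g overlapped.

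The RNA of citrate synthase, an enzyme whose activity is often used as a marker of mitochondrial content, differed by less than that of Idh2 and Idh3a. The values here are RNA levels, and mitochondrial content was not measured in these libraries. Cs had FPKM of 283, 313 and 292 in WT control and 368 and 350 in the labelled group, with no overlap in the deposited FPKM. The mean was 296 ± 15.2 (SD, n = 3) against 359 ± 12.9 (SD, n = 2), and the log2 fold change of 0.28 (SE 0.11, 95% confidence interval 0.02 to 0.53, limma adjusted p = 0.379) was not called and turned to -0.02 under TPM scaling. Set against Cs within each library, Idh2 was 0.406, 0.459 and 0.391 in WT control and 0.693 and 0.678 in the labelled libraries. Idh3a was 1.23, 1.26 and 1.21 times Cs against 1.41 and 1.46 times. Neither ratio overlapped between the groups, and neither was tested. Cs (ENSMUSG00000005683) is at chr10:128337734-128362479 on the plus strand, with 11 exons and 464 amino acids.

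The aconitase of the cytosol was the lowest of the 7 genes and the one whose groups overlapped. Aco1 had 6.10, 7.57 and 6.31 FPKM in WT control and 7.36 and 7.50 in the labelled group, where WT control replicate 2 was the highest of the 5 libraries. The log2 fold change was 0.16 (SE 0.13, 95% confidence interval -0.16 to 0.48, limma adjusted p = 0.708), and it was -0.13 under TPM scaling. The interval does not show that the groups were alike, since it also holds a log2 fold change of 0.48. Aco1 (ENSMUSG00000028405) is at chr4:40143081-40198338 on the plus strand, with 21 exons and 889 amino acids.

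**Figure D3:**
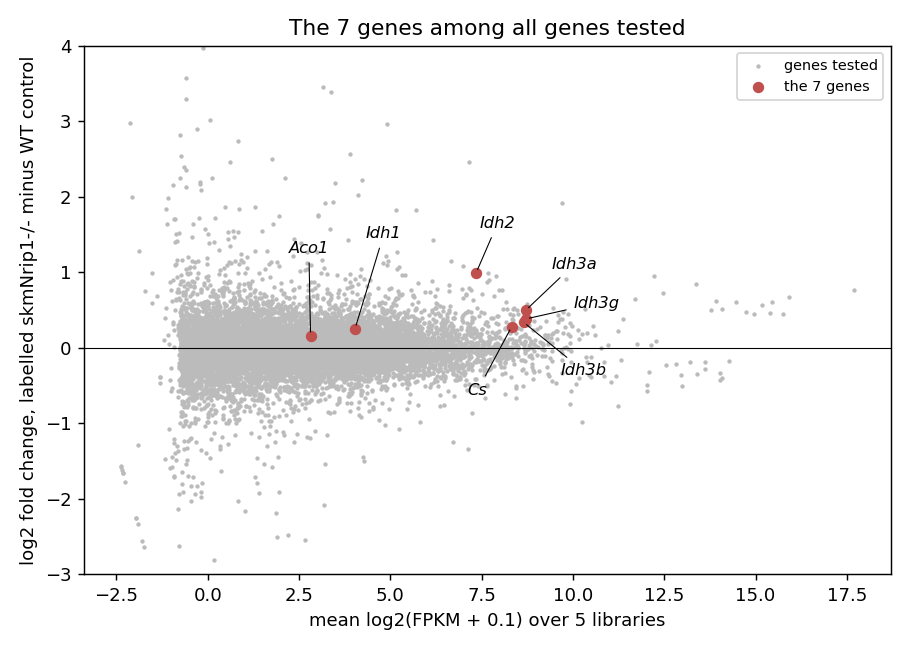
Log2 fold change of the labelled skmNrip1-/- libraries against WT control (vertical axis) by mean log2(FPKM + 0.1) over the 5 libraries (horizontal axis), for all 12148 genes tested in gray and the 7 genes in red, with 17 genes outside the drawn range. Idh2 lies at 0.99, with 1.12% of the genes tested higher, and the other 6 lie between 0.16 (Aco1) and 0.50 (Idh3a), of which Aco1, Cs and Idh1 turn below 0 under TPM scaling.

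By level per length, the 7 genes kept nearly the same order in both groups. In WT control it was the 3 Idh3 subunits, Cs, Idh2, Idh1 and Aco1, and the ranges of Idh3g, Idh3b and Idh3a overlapped. The same order of genes other than the subunits held in the labelled group. Idh2 stood at 124 FPKM against 296 for Cs in WT control and at 246 against 359 in the labelled group.

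A list of 12 more genes of the TCA cycle gave a background for these values. All 12 had a log2 fold change above 0, against 49.9% of all genes, and 10 of 12 did under TPM scaling. In all 12 both labelled libraries were above every WT control library, against 15.8% of all genes. Of them 9 were higher at an unadjusted limma p of 0.05 or less, against 6.57%, and 1 was called higher, against 0.37%. The called gene was Suclg2, the GDP-forming beta subunit of succinyl-CoA ligase, which rose from 24.5, 27.0 and 24.1 to 43.6 and 43.3 FPKM (log2 fold change 0.78, SE 0.10, limma adjusted p = 0.0414). The smallest difference was that of Sdhc, a membrane anchor of succinate dehydrogenase, at 0.13 (limma adjusted p = 0.715). The median of the 12 was 0.43, against 0.34 for the 7 genes and 0.00 for all genes tested.

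Among the 18 genes left when Aco1 was set aside, Idh2 had the largest log2 fold change and Suclg2 the next. Idh3a ranked 4, Idh3g 11, Idh3b 14, Cs 15 and Idh1 16. Idh1 was kept in this ranking although its enzyme is cytosolic and peroxisomal. The entry step and the beta and gamma subunits lay in the lower part of the cycle's range.

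**Figure D4:**
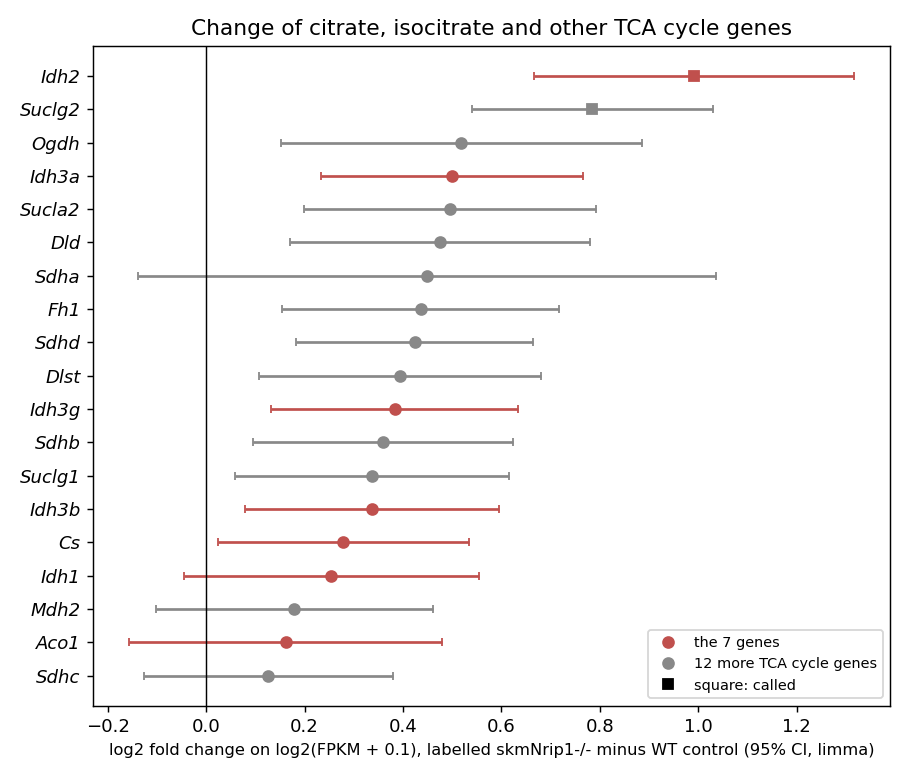
Log2 fold change on the log2(FPKM + 0.1) scale (horizontal axis) with its 95% confidence interval from limma, for the 7 genes and the 12 more genes of the TCA cycle. Idh2 (0.99) and Suclg2 (0.78) were called, and all points lie above 0, although Cs, Aco1, Idh1 and 2 of the 12 fall below 0 under TPM scaling.

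Citrate that leaves the mitochondria, and the other sources of NADPH, were followed in a list of 17 genes in 18 rows, since Nnt has a pair of rows. Of these, 13 were above 0, against 49.9% of all genes, and 6 were under TPM scaling. None was called by limma, against 0.37% of all genes called higher and 0.0823% called lower. At an unadjusted limma p of 0.05 or less, 5 were higher, against 6.57% of all genes, and 1 was lower, against 5.33%. The lower one was Pcx, pyruvate carboxylase, with 15.8, 16.7 and 16.8 FPKM in WT control and 14.3 and 12.3 in the labelled group (log2 fold change -0.31, limma adjusted p = 0.359). Both labelled libraries lay above every WT control library in 10 of the 18 rows, against 15.8% of all genes, and below in 3, against 14.4%. The median was 0.20, and -0.10 under TPM scaling. Slc25a1, the mitochondrial citrate carrier, had 1.99, 2.61 and 2.29 FPKM in WT control and 1.58 and 1.97 in the labelled group (log2 fold change -0.35, limma adjusted p = 0.521). Acly, which splits citrate in the cytosol, had 8.01, 9.74 and 8.36 against 7.76 and 6.50 FPKM (log2 fold change -0.28, limma adjusted p = 0.496). In both, each labelled library was below every WT control library, and neither gene was called.

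Nnt, which makes mitochondrial NADPH from NADH with the proton gradient, had the largest difference of the list. Its main row (ENSMUSG00000025453) had 11.8, 8.16 and 3.80 FPKM in WT control and 43.5 and 42.1 in the labelled group (log2 fold change 2.56, SE 0.42, limma adjusted p = 0.0953). The WT control libraries differed among themselves, and the labelled libraries were close together and far above them. The other row (ENSMUSG00000116207) held 6.97, 0 and 4.46 FPKM in WT control and 1.73 and 0 in the labelled group, which is the smallest log2 fold change of the list. C57BL/6J mice are known for a deletion within Nnt, and the parents here came from C57BL/6J and C57BL/6JN. The Nnt genotype of each mouse was not tested.

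Other NADP-linked genes varied less. Me1, the cytosolic NADP-dependent malic enzyme, had 109.99, 85.4 and 72.0 FPKM in WT control and 72.1 and 72.5 in the labelled group, and the groups overlapped (limma adjusted p = 0.616). Sirt3, a mitochondrial deacetylase of which IDH2 is a known substrate, had 20.2, 25.9 and 25.1 FPKM against 28.9 and 28.8, with no overlap (log2 fold change 0.29, limma adjusted p = 0.475).

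**Figure D5:**
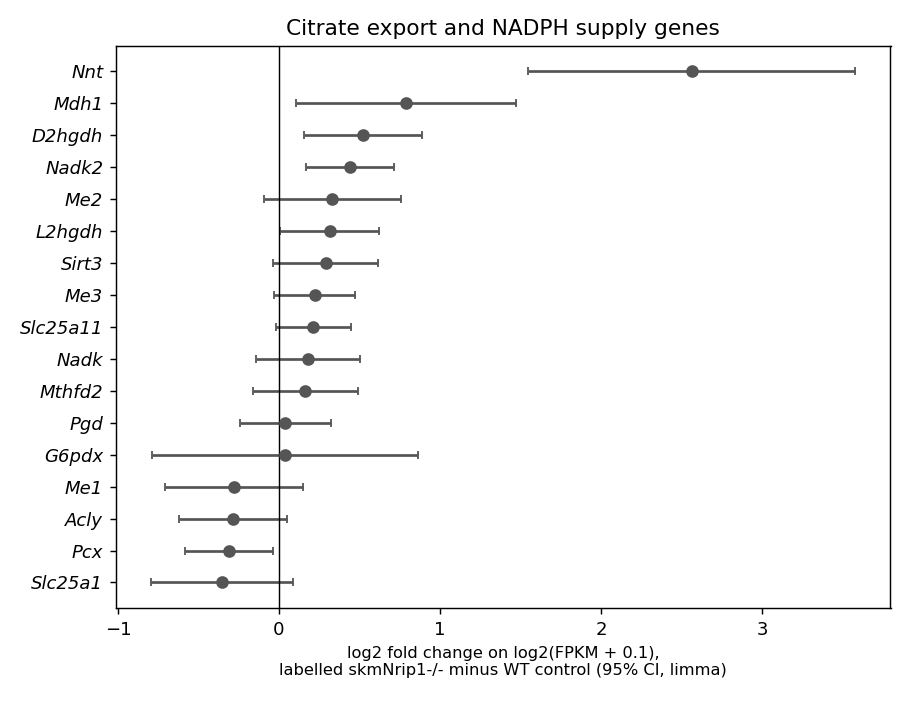
Log2 fold change (horizontal axis, log2(FPKM + 0.1) scale) with its 95% confidence interval from limma for the genes of citrate export and NADPH supply, leaving out the Nnt row with libraries at 0. Nnt lies at 2.56 and Slc25a1 at -0.35, and none was called.

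Genes tied to the iron-sulfur cluster of aconitase were followed in 2 lists. None of them was called, against 0.37% of all genes called higher and 0.0823% called lower. Of 10 genes of iron handling, 5 were above 0 and 5 below, with a median of 0.08, and 1 was higher at an unadjusted limma p of 0.05 or less, against 6.57% of all genes. Both labelled libraries were above every WT control library for 4 of the 10 and below for 1, against 15.8% and 14.4% of all genes. Ireb2, which encodes the other iron regulatory protein, had 4.49, 5.86 and 5.10 FPKM in WT control and 6.25 and 6.54 in the labelled group (log2 fold change 0.32, limma adjusted p = 0.463). The largest difference was that of the transferrin receptor Tfrc (0.58), with 45.8 and 80.9 FPKM in the labelled libraries, the first of them within the WT control range, and the smallest that of the heme oxygenase Hmox1 (-0.31). Of 17 genes of iron-sulfur cluster assembly, 13 were above 0, against 49.9% of all genes, with a median of 0.08. At an unadjusted limma p of 0.05 or less 4 of the 17 were higher, against 6.57% of all genes, and 6 had both labelled libraries above every WT control library, against 15.8%. Iba57 was the largest (0.47) and Ciao2b the smallest (-0.17). The medians of both lists were -0.22 under TPM scaling.

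By likeness of pattern over the 5 libraries, the genes nearest to Idh2 and to Cs were looked up. Likeness was the root mean square difference of centred log2(FPKM + 0.1), over 4557 other genes that averaged at least 10 FPKM. The nearest was Hadhb, a subunit of the mitochondrial trifunctional protein (difference 0.043, log2 fold change 0.95, limma adjusted p = 0.0378), then the carnitine-acylcarnitine carrier Slc25a20 (0.055) and the glutathione transferase Mgst1 (0.059). For Cs the nearest were the aldehyde dehydrogenase Aldh2 (0.013), Btrc (0.019) and Pank4 (0.021), each with a log2 fold change of 0.27. These are descriptions over 5 libraries in 2 groups. The genes were picked by these same values, so their fold changes and adjusted p add no support for Idh2 or Cs.

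Markers of fibers and other cells were summed beside these results. The 6 fast fiber markers summed to 38438 to 52198 FPKM in WT control and 35772 and 34886 in the labelled group. Both labelled libraries lay below every WT control library for 3 of the 6, against 14.4% of all genes. They lay above for 0, against 15.8%. Actn3, 1 of the 3, had 3558, 2712 and 2701 FPKM in WT control and 1739 and 1744 in the labelled group (log2 fold change -0.77, limma adjusted p = 0.169). The 5 slow fiber markers summed to 14.2, 14.9 and 22.1 against 58.9 and 43.8 FPKM, which was carried by Myl2 (2.03, 1.85 and 9.68 against 42.1 and 33.6 FPKM), while the slow myosin Myh7 stayed at 0.449 to 1.72 FPKM. Fast fiber markers were far above slow fiber markers in every library. The 5 red blood cell markers summed to 511 to 764 FPKM in WT control and 996 and 827 in the labelled group. For 4 of the 5, both labelled libraries lay above every WT control library, against 15.8% of all genes. Over all 5 libraries the sums were 8.18 to 14.9 FPKM for adipocyte, 63.0 to 77.8 for endothelium, 3.24 to 7.31 for macrophage, 14.1 to 25.4 for Schwann cell and 117 to 195 for fibroblast markers. No marker was at 0 in a library. None was called by limma, against 0.37% of all genes called higher and 0.0823% called lower. At an unadjusted limma p of 0.05 or less, 1 of the 5 slow fiber and 3 of the 5 red blood cell markers were higher, against 6.57% of all genes. Of the 6 fast fiber markers 1, Actn3, was lower at that p, against 5.33%. The part of fiber type and blood in the differences of the 7 genes was not tested.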

How the data were processed

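RNA-seq libraries of TA muscle, 3 labelled WT control and 2 labelled skmNrip1-/-, were grouped by their labels. Libraries were made with the NEBNext Ultra kit, and the authors ran Salmon 1.10.2 on mm10, then tximport to reach gene level. FPKM per gene and library were deposited. How the FPKM were computed and the annotation release are not given in the sources used here. The values show a scaling that gives each library a median ratio to the geometric mean of 1.00, and 902 genes were listed at 0 in at least 1 library. Columns with the authors' own DESeq2 1.44.0 comparison (log2 fold change, adjusted p-value) are in the deposited table and were used in no step.

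The groups were compared by limma 3.58.1 under R 4.3.3 (lmFit, eBayes with trend) on log2(FPKM + 0.1) in 1 fit of all 5 libraries, without covariates, with Benjamini-Hochberg adjustment over the 12148 genes that averaged at least 0.5 FPKM. Fold changes on this scale understate changes of low genes. Calls needed an adjusted p at or under 0.05 and a fold change at or over 1.2. Ratios within libraries were compared by exact permutation tests. The fit was tested on simulated data. Positions come from GENCODE M21 (GRCm38), and promoters from RefSeq (GRCm38.p6), which held 6 of the 7 genes. Tables and figures used Python 3.11.15, pandas 2.3.3, numpy 2.4.6, scipy 1.17.1 and matplotlib 3.10.9.

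The members, lists and tests were chosen with earlier results of these data known. The text names the 7 genes, Nrip1, the called, largest and smallest members of each list, Ireb2, Acly, Slc25a1, Nnt, Me1 and Sirt3, and the 3 genes most like Idh2 and Cs. Sdhc, Pcx, Nop56, Actn3, Myl2 and Myh7 are named as list members, overlapping genes or markers. Of these, Pcx, Nop56, Actn3, Myl2 and Myh7 were chosen after their values were seen. Some results are not reported here. Alternatives were other pseudocounts, minimums, scalings and variance settings, a replicate block, a stricter threshold, and each library left out in turn. Among the scalings, median-of-ratios had the same factor of 1.00 in every library. That alternative could therefore hardly differ from the main fit.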

Additional observations from a re-analysis of the deposited data

How the results depend on the processing

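The main counts were 45 genes called higher and 10 lower. Leaving out 1 library gave 6 to 55 higher and 3 to 16 lower, eBayes without trend 22 and 3, an adjusted p of 0.01 or less 14 and 3, and TPM scaling 63 lower. Idh2 kept its direction in all 15 alternatives, with adjusted p from 0.0324 to 0.348. It was not called with a pseudocount of 0.01 (0.99, adjusted p = 0.0515), with no minimum on FPKM (0.99, adjusted p = 0.0616), under TPM scaling (0.69, adjusted p = 0.0683), under TPM scaling without mtDNA-encoded genes (1.07, adjusted p = 0.0658), with eBayes without trend (0.99, adjusted p = 0.116) or without 4 of the 5 libraries in turn (0.93 to 1.1 over all 5). Under TPM scaling, Cs (-0.020), Aco1 (-0.13) and Idh1 (-0.043) turned below 0. That scaling divides by a sum in which mtDNA-encoded genes took a larger part in the labelled libraries. Under TPM scaling without mtDNA-encoded genes, the log2 fold changes were 0.35 for Cs, 0.24 for Aco1 and 0.33 for Idh1. List medians under TPM scaling were 0.13 (12 genes of the TCA cycle), -0.10 (citrate export and NADPH supply), -0.22 (iron handling) and -0.22 (iron-sulfur cluster assembly), and without mtDNA-encoded genes 0.27, 0.15 and 0.16 for the last 3. Leaving out 1 library gave medians of 0.17 to 0.29, 0.025 to 0.11 and 0.033 to 0.16 for the same 3. Idh3a, Idh3b and Idh3g kept their direction and stayed uncalled in 15 alternatives, and the 6 ratios kept theirs in 10. The cause of these changes was not tested. Replicate numbers 1 and 2 occur in both groups, and deviations from the group mean correlated at 0.065 and 0.095 between libraries of the same number. With 2 labelled libraries their deviations mirror each other, so these correlations cannot show whether the replicates were paired. With a replicate block, 18 genes were called higher and 4 lower, and Idh2 was at 0.93 (adjusted p = 0.235). Depth is unknown, so no limit from counting could be given.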
